A study of Sus scrofa with 6 samples.

Results

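The A and B cyclins and the kinases that act with them or on them formed a set of 10 genes: *CCNA1*, *CCNA2*, *CCNB1*, *CCNB2*, *CCNB3*, *CDK1*, *CDK2*, *WEE1*, *WEE2* and *PKMYT1*. Members were found by symbol in the deposited gene table, with the germline-biased forms (*CCNA1*, *WEE2*) set against the somatic forms (*CCNA2*, *WEE1*). The table named 8 of the 10. *CDK1* was listed by identifier only and was found through an Ensembl name table, and *CCNA2* had no row of its own. The set was therefore 9 of 24358 genes. The set was drawn up with values of these embryos known, and *CCNA1* was among the genes that the study picked as changed on the same embryos, so differences between the groups are given as descriptions.

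The samples were 6 single porcine embryos that the labels call blastocysts. The paper's methods give the same day of collection for both groups. The 3 *CARM1* KD (knockdown) embryos came from mature oocytes injected with siRNA against *CARM1*, which encodes a histone arginine methyltransferase, and the 3 control embryos were not injected. No embryo injected with a negative control siRNA was sequenced, so injection and loss of *CARM1* cannot be told apart in these RNA values. Outside the sequencing, the paper found no difference between such embryos and uninjected ones in *CARM1* mRNA by qPCR or in developmental rates. The sources used here give no strain, do not say whether these 6 embryos were parthenogenetic or fertilized, and do not link embryos across the groups. P-values therefore measure the spread between these embryos alone.

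B-type cyclins bind CDK1 to form the kinase that drives entry into mitosis and meiosis, and A-type cyclins bind CDK2 and CDK1 from DNA replication up to mitosis. WEE1, WEE2 and PKMYT1 hold CDK1 inactive by phosphorylating it, and CDC25 phosphatases reverse that mark. In mice, cyclin A1 is needed for male meiosis and WEE2, also called WEE1B, acts in oocytes, whereas cyclin A2 and WEE1 work in dividing somatic cells. Embryos begin development with cyclin and kinase mRNA stored in the egg and replace it with transcripts of their own genome.

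The germline form *CCNA1* is the member that the study also measured by qPCR. For the genes it selected for qPCR, *CCNA1* among them, the paper describes patterns that closely matched those from sequencing. The primers for *CCNA1* are shown, and they were not placed on its annotated transcripts here. Both were 22 bases long and are given from 5′ to 3′ for the gene on chromosome 11.
*CCNA1* forward primer: attgtgccttgcctgagtgagc
*CCNA1* reverse primer: tgcgggtggttccatgagagac

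Estimated counts summed to between 26341924 and 41727594 per embryo. *CARM1* itself, the targeted gene, had 0.130, 0.150 and 0.274 FPKM (sequenced fragments scaled to transcript length and library depth) in *CARM1* KD embryos 1, 2 and 3, against 1.96, 4.54 and 1.26 FPKM in control embryos 1, 2 and 3. Every *CARM1* KD embryo was below every control, with a log2 fold change of -3.98 (standard error 1.02, edgeR's quasi-likelihood test, unadjusted p = 0.00516, Benjamini-Hochberg adjusted p = 0.9999). Control 2 stood apart from the other libraries. Mitochondrial genes took 46.0% of its counts, against 14.5% to 23.9% in the other 5, and 11173 genes had a count in it, against 13101 to 14822. A list of oocyte markers (8 of 10 with a row) summed to 140.1, 19.1 and 991 FPKM in *CARM1* KD embryos 1, 2 and 3, and to 347, 1996 and 119 FPKM in control embryos 1, 2 and 3. Of the epithelial keratins of trophectoderm, *KRT8* stood at 45.7, 141 and 0 FPKM in the *CARM1* KD embryos and at 7.54, 0.0484 and 30.6 FPKM in the controls, so *CARM1* KD 3 and control 2 nearly or wholly lacked it despite the blastocyst label. *TFAP2C*, a transcription factor of the same list, was low in control 2 alone, at 41.2, 27.9 and 35.1 FPKM in the *CARM1* KD embryos and 50.1, 0.586 and 49.7 FPKM in the controls. The trophectoderm factor *CDX2* was at 0 in *CARM1* KD 1 and 3 and in control 1 and 3, and reached 0.136 FPKM in *CARM1* KD 2 and 0.445 FPKM in control 2. Of a list of cumulus and granulosa markers, *AMH*, *FSHR* and *LHCGR* were at 0 in all 6 libraries. *STAR*, *CYP19A1* and *INHBA* had 672, 195 and 69 counts over all libraries, with *STAR* found in each. Of a list of sperm markers, *ACR*, *PRM1*, *TNP2* and *TSSK6* were at 0 in all 6. *AKAP4*, *PRM2*, *TNP1* and *ODF1* had 126, 31, 8 and 8 counts over all libraries. The summed levels of the 2 lists were at most 1.42 and 1.99 FPKM in *CARM1* KD embryos and 0.722 and 1.11 FPKM in controls. Genes listed on chromosome Y summed to 178, 215 and 23.8 FPKM in *CARM1* KD embryos 1, 2 and 3, and to 28.1, 9.97 and 13.8 FPKM in control embryos 1, 2 and 3, so *CARM1* KD 1 and 2 stood above the other 4. No control was high in Y-linked RNA, so the groups also differed in this, and its part in the differences between them was not tested.

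Across the 6 embryos *CCNB1* and *WEE2* had the most RNA per length, and *WEE1* and *PKMYT1* the least. The means over all 6 embryos were 251 ± 122 FPKM for *CCNB1*, 215 ± 349 FPKM for *WEE2*, 50.8 ± 46.3 FPKM for *CCNB2* and 49.8 ± 27.8 FPKM for *CDK1* (SD, n = 6). They were 6.69 ± 12.2 FPKM for *CCNA1*, 5.42 ± 2.60 FPKM for *CCNB3*, 3.19 ± 1.56 FPKM for *CDK2*, 0.480 ± 0.553 FPKM for *PKMYT1* and 0.458 ± 0.414 FPKM for *WEE1*. Neighbours in this order were mostly closer than the spread between embryos. *CDK1* was above *CCNA1*, and *CDK2* above *PKMYT1*, in 6 of 6 embryos. *CCNB1* was above *WEE2* in 5 of 6, with control 2 the exception, *WEE2* above *CCNB2* in 5 of 6, with *CARM1* KD 2 the exception, and *CCNB3* above *CDK2* in 5 of 6. *CCNB2* over *CDK1*, *CCNA1* over *CCNB3* and *PKMYT1* over *WEE1* each held in only 2 of 6 embryos, so the order within those pairs was not settled. All of these orders are by gene FPKM, which was not the sum over transcripts, so genes close in level may stand otherwise by transcript.

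**Figure D1:**
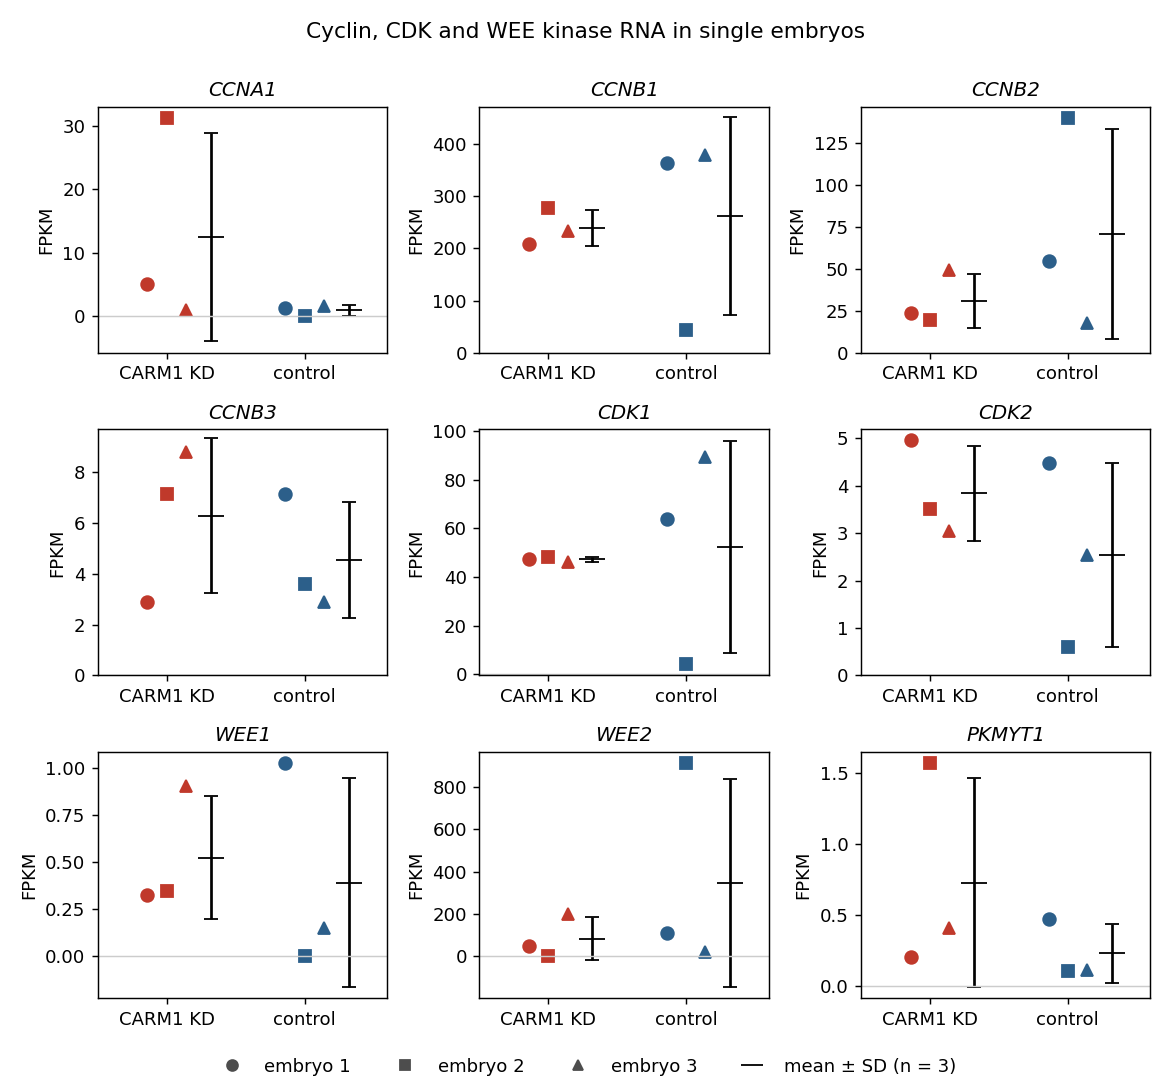
FPKM (y axis, linear, own scale per gene) of the 9 members in each *CARM1* KD embryo (left) and each control embryo (right), with mean ± SD of 3 embryos as the black bars. The points of both groups overlap for all 9 genes, and control 2 holds the lowest *CCNB1*, *CDK1* and *CDK2* values and the highest *CCNB2* and *WEE2* values.

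Of the A-type cyclins, *CCNA1* (ENSSSCG00000009354, chromosome 11, 12395872 to 12405399, plus strand, coordinates as in the deposited table) was high in a single embryo. It had 5.03, 31.3 and 1.04 FPKM in *CARM1* KD embryos 1, 2 and 3 (513, 3020 and 109 estimated counts), against 1.24, 0 and 1.59 FPKM in control embryos 1, 2 and 3 (134, 0 and 109 counts). *CARM1* KD 2 stood far above the rest, *CARM1* KD 1 was next, and *CARM1* KD 3 lay inside the control range. The count of 0 in control 2 allows up to 0.0398 FPKM, from 3 counts in that library. The value of *CARM1* KD 2 was 785-fold above that limit. The limit covers counting error only and not RNA missed in that library, so no lower bound of the difference follows. The means were 12.4 ± 16.4 FPKM in *CARM1* KD embryos and 0.944 ± 0.837 FPKM in controls (SD, n = 3 each), and the log2 fold change was 3.82 (standard error 1.98). It was 1.61 without *CARM1* KD 2 and 3.20 without control 2. The trophectoderm keratin *KRT18* stood at 68.9, 165 and 0 FPKM in the *CARM1* KD embryos and 30.3, 0 and 39.2 FPKM in the controls. The 4 embryos with *KRT18* had the 4 highest *CCNA1* levels, in the same order, and *CARM1* KD 1 and 2, the highest in *CCNA1*, were also the embryos high in Y-linked RNA. The part of the keratins and of the Y-linked RNA in the *CCNA1* difference was not tested.

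The *CCNA1* reads were not divided alike over its annotated transcripts. The 9-exon transcript ENSSSCT00000010251 (1821 nucleotides) held 63.9% of the counts in *CARM1* KD 1 (Wilson 95% interval 59.7% to 68.0%), 98.9% in *CARM1* KD 2 (98.5% to 99.2%) and 0% in *CARM1* KD 3 (up to 3.40%), against 0% in control 1 (up to 2.79%) and 74.3% in control 3 (65.4% to 81.6%). Nearly all of the remaining counts went to the 8-exon transcript ENSSSCT00000059563 (2456 nucleotides), and the 7-exon ENSSSCT00000045284 had 2 counts, both in *CARM1* KD 2. The 8-exon form was the less variable of the 2 main ones, at 185, 30 and 109 counts in the *CARM1* KD embryos and 134, 0 and 28 counts in the controls. The high level in *CARM1* KD 2 was thus almost wholly 9-exon transcript, with 2988 counts, a form present in 2 of 3 *CARM1* KD embryos and 1 of 3 controls. These intervals cover counting error only and not the error of assigning reads to overlapping transcripts. The FPKM of a gene was not the sum over its transcripts. In *CARM1* KD 2 the 9-exon transcript alone was listed at 41.7 FPKM and the gene at 31.3 FPKM.

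**Figure D2:**
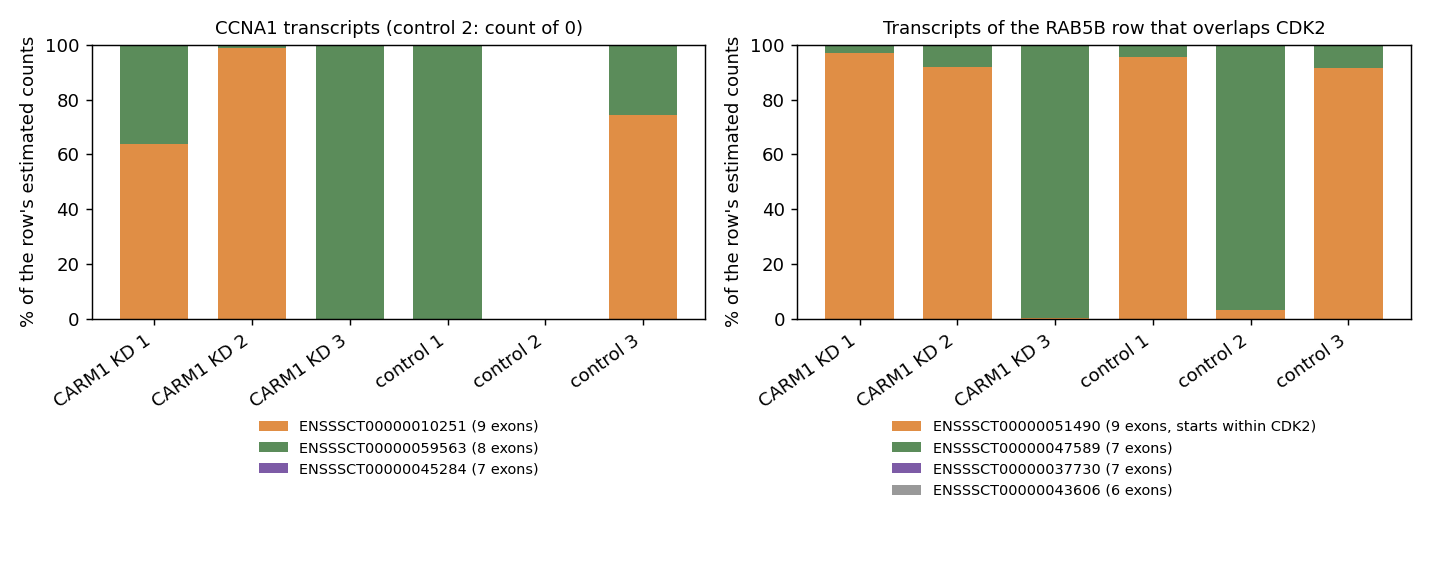
Percent of the estimated counts (y axis) held by each annotated transcript in each embryo, for *CCNA1* (left panel) and for the *RAB5B* row that overlaps *CDK2* (right panel), with *CARM1* KD embryos left of controls. The 9-exon *CCNA1* transcript holds 98.9% in *CARM1* KD 2 and 0% in *CARM1* KD 3 and control 1, and control 2 has no bar because its count is 0.

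The somatic form *CCNA2*, the cyclin A of dividing cells, could not be read apart from a neighbour. In the RefSeq annotation of Sscrofa11.1 the whole of its span lies inside 1 transcript of the *BBS7* row (ENSSSCG00000009093, chromosome 8, 102213138 to 102266309, plus strand). That transcript, ENSSSCT00000009960, has 26 exons, 8 more than the other *BBS7* transcripts, and it held 99.98% of the counts of the row over all embryos. *BBS7* encodes a subunit of a complex that works at the base of cilia. The row therefore counts *BBS7* and may count *CCNA2*, and their parts could not be separated. On the other strand, transcripts of *EXOSC9*, an RNA exosome subunit, cover 30.4% and 10.3% of the *CCNA2* span.

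The row had 19.6, 49.6 and 40.8 FPKM in *CARM1* KD embryos 1, 2 and 3, against 25.2, 6.49 and 22.0 FPKM in control embryos 1, 2 and 3. *CARM1* KD 2 and 3 were above all controls and *CARM1* KD 1 was inside their range. The means were 36.7 ± 15.4 FPKM in *CARM1* KD embryos and 17.9 ± 10.02 FPKM in controls (SD, n = 3 each), with a log2 fold change of 0.96 (standard error 0.77). In place of the germline to somatic ratio of the A cyclins, *CCNA1* was set against this row on the log2(FPKM + 1) scale, a comparison chosen after the row had been seen. The difference was -1.77, -0.65 and -4.36 in *CARM1* KD embryos 1, 2 and 3, and -3.55, -2.90 and -3.15 in control embryos 1, 2 and 3. *CCNA1* was below the row in every embryo, and *CARM1* KD embryos lay on both sides of the control range. Without *CARM1* KD 2 the mean difference between the groups was 0.13, against 0.94 with it, and without *CARM1* KD 3 it was 1.99.

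Among the B-type cyclins, *CCNB1* (ENSSSCG00000029326, chromosome 16, 47338072 to 47349846, plus strand), the main mitotic cyclin, was abundant in 5 of 6 embryos. It had 208, 277 and 234 FPKM in *CARM1* KD embryos 1, 2 and 3, against 363, 43.1 and 379 FPKM in control embryos 1, 2 and 3. The *CARM1* KD embryos lay close together, between 2 high controls and 1 low control. The means were 239.7 ± 34.4 FPKM in *CARM1* KD embryos and 262 ± 189.5 FPKM in controls (SD, n = 3 each), with a log2 fold change of -0.19 (standard error 0.96). It was -0.71 without control 2 and 0.27 without control 3, so its direction hung on single control embryos.

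*CCNB2* (ENSSSCG00000004588, chromosome 1, 112907049 to 112942219, minus strand), which has a Golgi-associated pool in human cells, ran the other way in control 2. It had 23.8, 19.6 and 49.4 FPKM in *CARM1* KD embryos 1, 2 and 3, against 54.7, 139.8 and 17.7 FPKM in control embryos 1, 2 and 3. Control 2 was the highest and control 3 the lowest, with all *CARM1* KD embryos between them. The means were 31.0 ± 16.1 FPKM in *CARM1* KD embryos and 70.7 ± 62.6 FPKM in controls (SD, n = 3 each), with a log2 fold change of -1.42 (standard error 0.86), or -0.37 without control 2.

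*CCNB3* (ENSSSCG00000012307, chromosome X, 43891245 to 43992442, plus strand), a B-type cyclin that in mouse oocytes promotes the onset of anaphase of meiosis I, was low and the least variable member, with a 3.07-fold span between the highest and the lowest embryo. It had 2.89, 7.16 and 8.81 FPKM in *CARM1* KD embryos 1, 2 and 3, against 7.16, 3.60 and 2.87 FPKM in control embryos 1, 2 and 3. High and low embryos occurred in both groups, at 6.29 ± 3.06 FPKM in *CARM1* KD embryos and 4.55 ± 2.29 FPKM in controls (SD, n = 3 each), with a log2 fold change of 0.36 (standard error 0.69) that was 0.05 without *CARM1* KD 2. The 12-exon transcript ENSSSCT00000050626 held 82.4% to 100% of its counts in each embryo. On the opposite strand, *AKAP4* overlaps 4533 bp of the gene and had 0, 24 and 0 counts in the *CARM1* KD embryos and 21, 0 and 81 counts in the controls. No source used here states whether the counting used strand, so reads of the overlap cannot be told apart.

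The make-up of the B cyclins separated control 2 from the rest. *CCNB2* was 10.1%, 6.46% and 16.9% of the summed *CCNB1*, *CCNB2* and *CCNB3* FPKM in *CARM1* KD embryos 1, 2 and 3, against 12.9%, 75.0% and 4.42% in control embryos 1, 2 and 3. *CCNB1* made up 80.1% to 91.2% in the *CARM1* KD embryos and 85.4%, 23.1% and 94.9% in the controls. In control 2 alone *CCNB2* exceeded *CCNB1*, by 3.24-fold. This is also the library with 46.0% mitochondrial counts and the highest oocyte marker sum, and their part in this was not tested. The sum of the 3 cyclins was 235, 303 and 293 FPKM in *CARM1* KD embryos and 425, 187 and 399.7 FPKM in controls.

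*CDK1* (ENSSSCG00000010214, chromosome 14, 64233816 to 64252739, plus strand), the mitotic kinase that the B cyclins activate, was nearly the same in the 3 *CARM1* KD embryos. It had 47.4, 48.3 and 46.2 FPKM in *CARM1* KD embryos 1, 2 and 3, against 63.7, 4.10 and 89.3 FPKM in control embryos 1, 2 and 3. As with *CCNB1*, the *CARM1* KD embryos fell between 2 higher controls and a low control 2. The means were 47.3 ± 1.02 FPKM in *CARM1* KD embryos and 52.4 ± 43.7 FPKM in controls (SD, n = 3 each), with a log2 fold change of -0.23 (standard error 1.03), which was -0.79 without control 2 and 0.51 without control 3. The 8-exon transcript ENSSSCT00000050632 held 98.3% to 100% of its counts in every embryo.

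*CDK2* (ENSSSCG00000000373, chromosome 5, 21364387 to 21372168, plus strand), the partner of A and E cyclins, was present at a lower level. It had 4.97, 3.50 and 3.05 FPKM in *CARM1* KD embryos 1, 2 and 3, against 4.47, 0.589 and 2.54 FPKM in control embryos 1, 2 and 3. Control 2 was again the lowest, and the other controls overlapped the *CARM1* KD embryos. The means were 3.84 ± 1.004 FPKM in *CARM1* KD embryos and 2.53 ± 1.94 FPKM in controls (SD, n = 3 each), with a log2 fold change of 0.57 (standard error 0.89), or 0.10 without control 2. By gene FPKM, *CDK1* exceeded *CDK2* by 9.53-fold to 15.2-fold in the *CARM1* KD embryos, and by 14.3-fold, 6.97-fold and 35.2-fold in control embryos 1, 2 and 3. These fold sizes hold for gene FPKM only. In *CARM1* KD 1 the transcript ENSSSCT00000053267 of *CDK2* alone was listed at 6.78 FPKM, against 4.97 FPKM for the gene. The transcript ENSSSCT00000050632 of *CDK1* was listed at 55.9 FPKM there, against 47.4 FPKM for the gene.

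The *CDK2* value is uncertain because a row described as *RAB5B*, a small GTPase of early endosomes (ENSSSCG00000037597), overlaps it by 6380 bp on the same strand. The Ensembl name table pairs that identifier with *CDK2*, against the description in the deposited table. Its 9-exon transcript ENSSSCT00000051490 starts within *CDK2* and had 1587, 2904 and 53 counts in *CARM1* KD embryos 1, 2 and 3, against 2429, 140 and 1178 counts in control embryos 1, 2 and 3. It held 97.0%, 92.0% and 0.487% of the row in the *CARM1* KD embryos and 95.4%, 3.46% and 91.3% in the controls. In *CARM1* KD 3 and control 2, in which the summed oocyte markers were highest, the row consisted almost wholly of the 7-exon ENSSSCT00000047589, which begins beyond the *CDK2* row, with 10839 and 3912 counts. The *CDK2* transcript ENSSSCT00000053267 had 828, 532 and 263 counts in the *CARM1* KD embryos and 773, 0 and 189 counts in the controls, so *CARM1* KD 3 did not lack it.

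Of the kinases that restrain CDK1, *WEE2* (ENSSSCG00000016489, chromosome 18, 8171138 to 8195957, minus strand), the oocyte form, was found in every embryo and spanned 343-fold between them. It had 49.7, 2.66 and 199 FPKM in *CARM1* KD embryos 1, 2 and 3 (4157, 211 and 17009 counts), against 109, 912 and 20.7 FPKM in control embryos 1, 2 and 3 (9626, 56336 and 1157 counts). Control 2 was the highest and *CARM1* KD 2 the lowest, and the remaining 4 embryos of both groups alternated. The means were 83.7 ± 102 FPKM in *CARM1* KD embryos and 347 ± 491 FPKM in controls (SD, n = 3 each), with a log2 fold change of -2.47 (standard error 1.67). Without control 2 the log2 fold change was 0.10, so the lower mean of the *CARM1* KD embryos rested on that library. The 6 embryos stood in the same order by *WEE2* as by the summed oocyte markers given above, from control 2 down to *CARM1* KD 2. Fewer cells that hold such RNA and less of it per cell cannot be told apart in whole embryos, and the part of the oocyte markers in the *WEE2* difference was not tested.

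*WEE1* (ENSSSCG00000013411, chromosome 2, 49876885 to 49894632, minus strand), the somatic form, was low in every embryo. It had 0.325, 0.346 and 0.904 FPKM in *CARM1* KD embryos 1, 2 and 3 (96, 96 and 271 counts), against 1.03, 0 and 0.149 FPKM in control embryos 1, 2 and 3 (318, 0 and 30 counts). The controls spanned the whole range of the *CARM1* KD embryos, and the 0 in control 2 allows up to 0.0139 FPKM. The means were 0.525 ± 0.328 FPKM in *CARM1* KD embryos and 0.392 ± 0.554 FPKM in controls (SD, n = 3 each). *WEE1* did not pass the filter of 1 FPKM in 2 libraries, and without a filter its log2 fold change was 0.34 (standard error 1.90).

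The germline form thus exceeded the somatic form in all 6 embryos. *WEE2* was 153-fold, 7.69-fold and 219.8-fold above *WEE1* in *CARM1* KD embryos 1, 2 and 3, and 106-fold and 138-fold above it in control embryos 1 and 3. In control 2, with *WEE1* at 0, no ratio is given. On the log2(FPKM + 1) scale the difference of *WEE2* and *WEE1* was 5.26, 1.44 and 6.71 in the *CARM1* KD embryos and 5.76, 9.83 and 4.24 in the controls, so the groups overlapped. The means were 4.47 ± 2.72 in *CARM1* KD embryos and 6.61 ± 2.89 in controls (SD, n = 3 each). The difference between the groups was -2.14, or -0.53 without control 2 and -0.63 without *CARM1* KD 2, and was smaller than the spread within either group.

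*PKMYT1* (ENSSSCG00000029264, chromosome 3, 39201878 to 39211380, plus strand), the membrane-bound CDK1 inhibitory kinase, was low throughout. It had 0.207, 1.57 and 0.412 FPKM in *CARM1* KD embryos 1, 2 and 3 (48, 339 and 97 counts), against 0.472, 0.108 and 0.115 FPKM in control embryos 1, 2 and 3 (114, 19 and 18 counts). *CARM1* KD 2 was highest and the other embryos overlapped, with means of 0.728 ± 0.733 FPKM in *CARM1* KD embryos and 0.232 ± 0.208 FPKM in controls (SD, n = 3 each). It did not pass the filter, and its log2 fold change without one was 1.63 (standard error 1.74). The 9-exon transcript ENSSSCT00000030606 had 0 counts in all 6 embryos. All counts fell on 2 transcripts that run on to 39211380, in a region where *PAQR4* overlaps 5285 bp on the opposite strand, so these counts are uncertain as a measure of *PKMYT1*.

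Of the summed FPKM of the 3 inhibitory kinases, *WEE2* made up 98.9%, 58.1% and 99.3% in *CARM1* KD embryos 1, 2 and 3, and 98.6%, 99.99% and 98.7% in control embryos 1, 2 and 3. *CARM1* KD 2 was the only embryo in which another kinase of the 3 took more than a few percent. There it was *PKMYT1*, at 1.57 FPKM, with *WEE1* at 0.346 FPKM. The *PKMYT1* counts are uncertain, as given above, and so is this share. The sum itself was 50.2, 4.57 and 199.9 FPKM in the *CARM1* KD embryos and 110.3, 912 and 20.9 FPKM in the controls. By gene FPKM, *WEE2* RNA was 1.05, 0.0550 and 4.30 times *CDK1* RNA in the *CARM1* KD embryos and 1.71, 222 and 0.231 times in the controls. In control 2 *WEE2* RNA was thus far above *CDK1* RNA, and in *CARM1* KD 2 and control 3 it was below. In *CARM1* KD 1 the order was not settled, as the *CDK1* transcript ENSSSCT00000050632 was listed at 55.9 FPKM and *WEE2* at 49.7 FPKM. No levels of these proteins are given here.

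**Figure D3:**
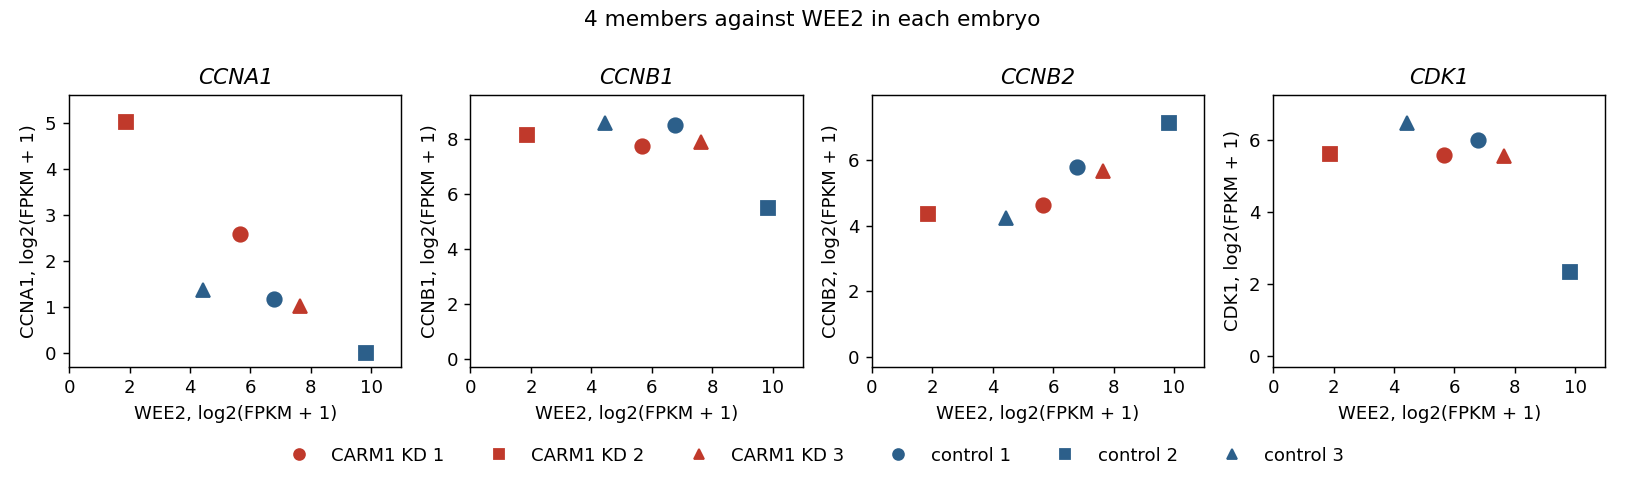
*CCNA1*, *CCNB1*, *CCNB2* and *CDK1* (y axes) against *WEE2* (x axis) in the 6 embryos, both as log2(FPKM + 1), with red points for *CARM1* KD and blue points for controls and 1 marker shape per replicate number. *CCNB2* goes up with *WEE2* (r = 0.90) and *CCNA1* goes down (r = -0.90). The size of r for *CCNA1* hangs on *CARM1* KD 2 at the left and control 2 at the right.

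*WEE2* was found in all 6 embryos over a wide range, and it was taken as the reference after these values had been seen. The other 8 members were set against *WEE2* over the 6 embryos on the log2(FPKM + 1) scale, 8 relations in all. *CCNB2* went up with *WEE2*, with Pearson's r = 0.90 (exact permutation test, 2-sided p = 0.0194, adjusted p = 0.0778 over the 8 relations) and Spearman's rho = 0.89 (exact permutation p = 0.0333, adjusted p = 0.133). Without the 2 embryos farthest out in *WEE2*, *CARM1* KD 2 and control 2, r was 0.93. *CCNA1* went down as *WEE2* went up, with r = -0.90 (exact permutation p = 0.0153, adjusted p = 0.0778) and rho = -0.94 (exact permutation p = 0.0167, adjusted p = 0.133). Without the same 2 embryos r was -0.41, so the size of r hung on them. The others, in falling order of *WEE2*, were *CARM1* KD 3, control 1, *CARM1* KD 1 and control 3. They had 1.04, 1.24, 5.03 and 1.59 FPKM of *CCNA1*, and 49.4, 54.7, 23.8 and 17.7 FPKM of *CCNB2*. Values of r over so few embryos cannot rank the 2 relations. Neither passed after adjustment. Of 9474 tested genes with a symbol outside the set, 316 had r above 0.95 with *WEE2*, so a close relation to it was not particular to *CCNB2*.

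The remaining relations were weaker in the 6 embryos. For *CCNB1* r was -0.68 (rho -0.60) and for *CDK1* -0.67 (rho -0.71), with exact permutation p of 0.172 and 0.178 for r and 0.242 and 0.136 for rho. For *PKMYT1* and *CDK2* r was -0.68 and -0.57 (rho -0.49 and -0.37), with exact permutation p of 0.156 and 0.244 for r and 0.356 and 0.497 for rho. For *CCNB3* and *WEE1* r was -0.07 and -0.00 (rho 0.37 and -0.09), with exact permutation p of 0.894 and 0.997 for r and 0.497 and 0.919 for rho. Adjusted over the 8 relations, these p-values were 0.284 or more. Without the same 2 embryos r was -0.38 for *CCNB1*, -0.71 for *CDK1* and 0.24 for *CDK2*, and it was 0.93, 0.93 and 0.92 for *CCNB3*, *WEE1* and *PKMYT1*, over 4 embryos. All of these points share their libraries, and with 3 embryos a group the relations could not be tested within groups.

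The genes most like the germline forms were sought among 9474 tested genes with a symbol, by Pearson's r of log2(FPKM + 1) over the 6 embryos, as a description. Nearest to *WEE2* were *DAAM1* (r = 0.997), *CHN2*, *ST6GALNAC3*, *DCBLD1* and *MCM10* (r = 0.996), and 316 genes had r above 0.95. *DAAM1*, a formin that organises actin, had 17.2, 3.19 and 49.0 FPKM in the *CARM1* KD embryos and 31.9, 102 and 9.63 FPKM in the controls, in the same order as *WEE2*. *MCM10*, a DNA replication initiation factor, had 23.2, 7.11 and 42.6 FPKM in the *CARM1* KD embryos and 30.7, 64.1 and 16.9 FPKM in the controls. Among the genes nearest to *CCNA1* were *EIF4EBP2*, *GCNT1* and *ARL10* (r = 0.98 each) and *PYGL* (r = 0.97), and 24 genes had r above 0.95. *EIF4EBP2*, a repressor of translation initiation, had 5.31, 11.6 and 3.29 FPKM in the *CARM1* KD embryos and 3.77, 1.59 and 3.53 FPKM in the controls, and *PYGL*, liver glycogen phosphorylase, had 1.39, 5.15 and 0.578 FPKM in the *CARM1* KD embryos and 1.16, 0.358 and 1.01 FPKM in the controls. *CARM1* KD 2 was highest and control 2 lowest for both.

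Between the groups, 7 of the 9 members were tested among 10639 genes with at least 1 FPKM in at least 2 libraries. Of the 7, 0 passed an adjusted p of 0.05 in edgeR's quasi-likelihood test, where the background over all tested genes was 0%, and 0 passed an unadjusted p of 0.05, where it was 73 genes or 0.686% (36 higher, 0.338%, and 37 lower, 0.348%). In DESeq2, which gave a p for 10390 genes, 12 genes (0.115%) passed an adjusted p of 0.05 and 0 of them were members. At an unadjusted p of 0.05 it passed 193 genes (1.86%) and 1 member, *CCNA1*. The FPKM values of the groups overlapped for all 9 members, against non-overlap in 4.89% of tested genes. Of the 7, 3 had fitted values above the controls (*CCNA1*, *CCNB3*, *CDK2*) and 4 below (*CCNB1*, *CCNB2*, *CDK1*, *WEE2*), with a median log2 fold change of -0.19. Over all tested genes 5886 were higher and 4753 lower, with a median of 0.10.

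**Figure D4:**
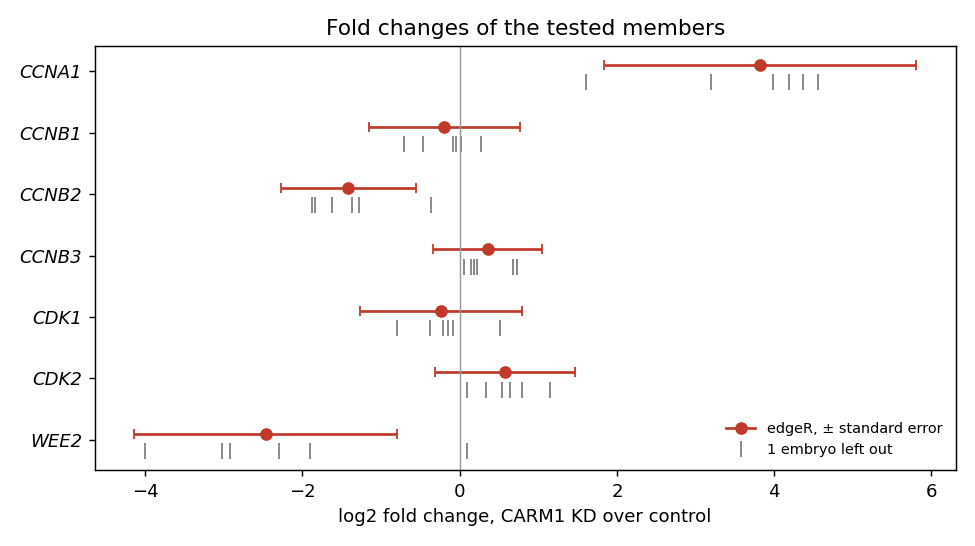
Log2 fold change of *CARM1* KD over control (x axis) of the 7 tested members from edgeR, with bars of 1 standard error, and below each the values with 1 embryo left out as grey ticks. Only the *CCNA1*, *CCNB2* and *WEE2* bars miss 0, and leaving out single embryos carries *CCNB1*, *CDK1* and *WEE2* across it.

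Of the tested genes of 4 further lists around CDK1, 0 passed an adjusted p of 0.05 in edgeR and 0 passed an unadjusted p of 0.05. Of 14 activators and partners of CDK1, 11 were tested and *CDC25A*, *AURKA* and *ARPP19* had no row. Of the 11, 5 were above and 6 below the controls in the fit, with a median log2 fold change of -0.07. *CKS2* and *CKS1B*, small subunits that bind CDKs, had 247.5 ± 26.6 and 92.5 ± 2.87 FPKM in the *CARM1* KD embryos, against 312 ± 249.8 and 83.4 ± 57.3 FPKM in the controls (SD, n = 3 each). *CDC25C*, the phosphatase that undoes WEE1 phosphorylation, had 36.9 ± 18.9 FPKM in the *CARM1* KD embryos and 63.7 ± 57.8 FPKM in the controls (SD, n = 3 each, log2 fold change -1.004, standard error 0.88). *CDK7*, the kinase that activates CDKs, had 58.8 ± 13.9 FPKM in the *CARM1* KD embryos and 57.2 ± 46.2 FPKM in the controls (SD, n = 3 each). In all 4 the control embryos spread more widely than the *CARM1* KD embryos.

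Of 18 genes of cyclin destruction, 15 were tested and *ANAPC2* and *ANAPC11* had no row. Of the 15, 8 were above and 7 below the controls in the fit, with a median log2 fold change of 0.02. *UBE2C* and *UBE2S*, ubiquitin-conjugating enzymes of the anaphase-promoting complex, had means over the 6 embryos of 612 and 261 FPKM, against 251 FPKM for *CCNB1*. *UBE2C* had 656 ± 85.4 FPKM in the *CARM1* KD embryos and 567 ± 211 FPKM in the controls, and *UBE2S* had 319 ± 199.6 FPKM in the *CARM1* KD embryos and 203 ± 150.2 FPKM in the controls (SD, n = 3 each). Subunits of the complex itself were lower, with *CDC26* at 94.8 ± 41.1 FPKM in the *CARM1* KD embryos and 59.5 ± 41.1 FPKM in the controls, and *CDC27* at 25.5 ± 9.76 FPKM in the *CARM1* KD embryos and 31.7 ± 10.4 FPKM in the controls (SD, n = 3 each). Of 9 CDK inhibitor and checkpoint genes, 8 were tested, 4 above and 4 below the controls, with a median log2 fold change of -0.00. *CHEK1*, a kinase of the DNA damage checkpoint, had 40.0 ± 30.9 FPKM in the *CARM1* KD embryos and 48.5 ± 44.8 FPKM in the controls, and *CDKN1A*, which encodes the CDK inhibitor p21, had 51.3 ± 36.3 FPKM in the *CARM1* KD embryos and 32.8 ± 20.2 FPKM in the controls (SD, n = 3 each).

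The summed level of the 6 genes of meiotic arrest, most of it *MOS*, was 32.7, 3.48 and 419 FPKM in *CARM1* KD embryos 1, 2 and 3, and 94.2, 306 and 12.2 FPKM in control embryos 1, 2 and 3, so that only *CARM1* KD 3 and control 2 stood in another order than by *WEE2*. Of the 6, 4 were tested and all 4 had fitted values below the controls, with a median log2 fold change of -0.90. *MOS*, the kinase that starts the MAP kinase cascade of metaphase arrest, had 129 ± 199 FPKM in the *CARM1* KD embryos and 97.7 ± 102 FPKM in the controls (SD, n = 3 each), with a log2 fold change of -0.05 and the mean higher in the *CARM1* KD embryos. *CPEB1*, which controls translation of stored mRNA, had 13.6 ± 20.3 FPKM in the *CARM1* KD embryos and 29.2 ± 37.8 FPKM in the controls, and *FBXO43*, which encodes the anaphase-promoting complex inhibitor EMI2, had 5.97 ± 9.44 FPKM in the *CARM1* KD embryos and 6.37 ± 7.11 FPKM in the controls (SD, n = 3 each). *PDE3A*, the phosphodiesterase that lowers cAMP in oocytes, had 2.49 ± 3.54 FPKM in the *CARM1* KD embryos and 4.33 ± 5.40 FPKM in the controls (SD, n = 3 each), and *GPR3*, the receptor that keeps cAMP high, was at 0 in all 6. *SPDYA*, a cyclin-independent activator of CDKs that was too low to be tested, ran in another order, with 0.217, 0.309 and 0.116 FPKM in the *CARM1* KD embryos and 0.0845, 0 and 0 FPKM in the controls. For the 4 tested genes the SD within each group exceeded the mean, and the part of the oocyte markers in it was not tested.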

How the data were processed

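RNA was sequenced from 6 single embryos, with groups and replicate numbers from the sample labels. For 24358 genes and 47421 transcripts the tables deposited by the authors hold an FPKM value and an estimated count per embryo, and 0 value columns lacked a sample. Their methods describe pre-amplified cDNA, Illumina sequencing, alignment to the pig genome and Cufflinks. According to the submitters' processing notes, which give no versions, HISAT2, StringTie, fastp and edgeR were used for the series, with HOMER and ChIPseeker, and the build named is the human GRCh38.p10. No source used here states which tool made these values. The gene positions fit the pig build Sscrofa11.1, where 99.96% of genes with the same name and chromosome in RefSeq overlapped. A count of 0 comes with an FPKM of 0.0001 in the tables, treated as 0 here. Amplification before sequencing means that reads are not independent molecules, so intervals and limits from 3 counts cover counting error only.

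Estimated counts, rounded to whole numbers, were fitted with edgeR 4.0.16 (R 4.3.3, TMM scaling, quasi-likelihood test, Benjamini-Hochberg adjustment over 10639 genes with at least 1 FPKM in at least 2 of the 6 libraries, 4 residual degrees of freedom, biological coefficient of variation 1.12). The standard error is the size of the log2 fold change over the root of its F statistic. Correlations over embryos used exact permutation tests in scipy 1.17.1. With 3 embryos against 3 no single-value test was run. The fit was tested on simulated counts that varied less between libraries than these embryos did, so that test does not show what could be detected here. Alternatives were DESeq2 1.42.0, limma 3.58.1 on log2(FPKM + 1) and log2(FPKM + 0.1), other scalings and filters, a replicate block and each embryo left out.

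The members and gene lists were chosen with earlier results of these data known. All members are named, with the most abundant tested genes of each pathway list and the 5 genes most correlated with *CCNA1* and with *WEE2*, of which 1 is not reported here. The planned *CCNA1* to *CCNA2* ratio could not be computed, as *CCNA2* had no row. Of 6907 genes listed by identifier only, 925 received a symbol from the name table.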

Additional observations from a re-analysis of the deposited data

How the results depend on the processing

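No member passed an adjusted p of 0.05 in any of 98 alternative values, where the lowest adjusted p was 0.996, and *CCNA1* alone passed an unadjusted p, in 2 of them (DESeq2 and no filter). Of the 98, 10 turned direction. *CCNB1* had a log2 fold change of 0.39 in limma with either pseudocount and 0.13 with a replicate block, and *CDK1* had 0.64 and 0.72 in limma, with a pseudocount of 1 and of 0.1, and 0.38 with the block. With 1 embryo left out, the log2 fold change ran between 1.61 and 4.55 for *CCNA1*, -0.71 and 0.27 for *CCNB1*, -1.87 and -0.37 for *CCNB2*, 0.05 and 0.73 for *CCNB3*, -0.79 and 0.51 for *CDK1*, 0.10 and 1.14 for *CDK2*, and -4.00 and 0.10 for *WEE2*. The *WEE2* to *WEE1* difference ran between -3.33 and -0.53, and that of *CCNA1* to the *BBS7* row, added after seeing the data, between 0.13 and 1.99. The number of members with higher values was 3, but 5 in limma with either pseudocount and with the block, and 3 to 5 with 1 embryo left out. Genes past an adjusted p numbered 0 in edgeR, 12 in DESeq2 and 0 to 0 with 1 embryo left out. Genes past an unadjusted p numbered 73 in edgeR (36 higher, 37 lower), 193 in DESeq2, 85 (63 higher, 22 lower) and 122 (83 higher, 39 lower) in limma with pseudocounts of 1 and 0.1, 243 without a filter (81 higher, 162 lower), 37 with 1 FPKM in 3 libraries, and 49 (without *CARM1* KD 2) to 122 (without *CARM1* KD 3) with 1 embryo left out. The median log2 fold change of all genes was 0.10 in edgeR, 0.22 and 0.34 in limma and 0.22 with the block. The replicate block left 16 genes past an unadjusted p, and the deviations of same-numbered embryos correlated at 0.27, -0.48 and -0.55. Deviations from a mean of 3 embryos depend on each other, so these values cannot show whether the numbers pair the embryos. The cause of these changes was not tested. The spread between 3 embryos a group limits what could be detected, and the low counts of *WEE1* and *PKMYT1* limit their ratios.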
